A study of Mus musculus with 2 samples.

Results

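Transcription factor genes that belong to segments of the nephron beyond the proximal tubule were followed through single-nucleus RNA sequencing (snRNA-seq) of developing mouse kidney. They were taken by symbol, with 8 of the 32285 genes of the feature tables matched at 1 row each: the Iroquois genes Irx1, Irx2 and Irx3, the single-minded genes Sim1 and Sim2, the AP-2 genes Tfap2a and Tfap2b, and the POU gene Pou3f3. The rule that picks them uses their names and no measured level, although the list was drawn up with earlier results of these data known. Whole kidneys gave 1 library at embryonic day E18.5 and 1 at postnatal day P3, each from snap-frozen kidneys of several mice, males and females together. The E18.5 mice were Mycf/f;Mycnf/f (no Cre), with floxed Myc and Mycn alleles left intact, and the P3 mice were wild type. The labels give a mixed strain at E18.5 and C57BL/6J at P3, whereas the methods give a mixed background for both.

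After quality limits, 21270 nuclei with 77321253 unique molecular identifiers (UMIs) remained at E18.5 and 11765 nuclei with 70055219 UMIs at P3, with medians of 3132.5 and 4534 UMIs per nucleus. The libraries shared 69 cell barcodes, and Scrublet called 16.4% and 16.8% of the nuclei doublets, most of them in 6 and 5 clusters that were left unnamed. With other clusters to which the marker rule gave no name, 42.1% and 40.3% of the nuclei were unnamed and lie outside every type compared, among them epithelial clusters such as 849 nuclei led by Eya1 and Bmper at P3. A doublet-rich cluster of 850 nuclei at P3, led by Pappa2 and Slc12a1 and with 78.8% called doublets, also got no name from its markers. It lies outside the loop of Henle-like type. A cluster in each library stood apart by low depth, with 2883 nuclei at a median of 1255 UMIs and 1645 at 978. Age, genotype, strain, library and software release changed together and cannot be told apart. With 1 library per age there was no test across samples, and every level below is a sum of UMIs over nuclei, given as CPM (UMIs of the gene per 1000000 UMIs of the nuclei). Values in parentheses after levels and ratios are exact 95% intervals that cover counting error only, not differences between animals or libraries.

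The nephron is patterned from a distal to a proximal end while it forms, and its distal part gives rise to the loop of Henle, which makes urine concentration possible, and to the distal convoluted tubule, where salt uptake is tuned. Iroquois, POU and AP-2 proteins bind DNA through their homeodomain, POU and basic helix-span-helix domains, and SIM proteins are basic helix-loop-helix PAS factors that act with an ARNT partner. Pou3f3, also called Brn1, is needed for the loop of Henle to form in the mouse, Tfap2b is needed for distal tubules, and Iroquois genes take part in dividing the nephron of the frog into segments.

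Some of these genes are neighbors on the chromosome. In GRCm38, the build of the deposited data, with GENCODE M21 gene models, Irx1 (chr13:71957921-71963723, minus strand) and Irx2 (chr13:72628820-72634198, plus strand) lie 665096 bases apart, whereas Irx3 belongs to the other Iroquois cluster, with Irx5 555557 bases away. Pou3f3 (chr1:42695768-42703176, plus strand) has no intron, and the noncoding gene Pantr1 lies 925 bases from it. Introns make up 90.9% of Sim1 and 90.0% of Sim2. Whether intronic reads were counted is not stated in the sources used here, so levels are compared below between nuclei for 1 gene at a time.

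The 250 bases before the RefSeq gene start are shown for Irx2, a gene whose level marked the loop and precursor nuclei described below, and for Pou3f3, whose window lies within the interval between it and Pantr1. Both are from the plus strand of GRCm38.p6, Irx2 at chr13:72628570-72628819 and Pou3f3 at chr1:42695518-42695767. Capitals mark matches on either strand to letters that members of these families can bind: ACGTG (the SIM-ARNT core) and GCCNNNGGC (AP-2).
Irx2: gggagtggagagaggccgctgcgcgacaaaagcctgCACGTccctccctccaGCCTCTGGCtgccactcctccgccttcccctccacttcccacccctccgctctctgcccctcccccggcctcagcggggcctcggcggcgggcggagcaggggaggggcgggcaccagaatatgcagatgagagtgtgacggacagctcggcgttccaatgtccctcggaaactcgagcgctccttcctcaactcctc
Pou3f3: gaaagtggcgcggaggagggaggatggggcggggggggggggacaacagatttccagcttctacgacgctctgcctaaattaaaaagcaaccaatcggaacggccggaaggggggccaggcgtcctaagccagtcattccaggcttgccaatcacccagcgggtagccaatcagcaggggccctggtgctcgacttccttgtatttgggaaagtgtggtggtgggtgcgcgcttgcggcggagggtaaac

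The Irx2 window held 1 match to each of the letters in capitals, and the matches do not overlap. Of all 32851 windows of the same length, 16.6% held ACGTG and 13.7% held GCCNNNGGC. The Pou3f3 window held neither, and also no octamer ATGCAAAT (1.6% of windows) and no ACANNTGT of Iroquois proteins (6.31%). Of the 6 members with a RefSeq window, Sim1 held 1 ACANNTGT, and Irx3, Tfap2a and Tfap2b held none of these letters. A match describes letters in a window and was not tested as a site.

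Nuclei were clustered without the 8 members and without 18 companion genes named below, and clusters were named from marker genes. In all, 245 nuclei at E18.5 and 366 at P3 were loop of Henle-like, with Slc12a1, the sodium, potassium and chloride cotransporter of the thick ascending limb, at 13462 and 14308 CPM. Another 168 and 132 were distal convoluted tubule-like, with Slc12a3, the thiazide-sensitive cotransporter, at 4275 and 5843 CPM, and the cluster at P3 also raised the connecting tubule markers. A further 938 and 431 were distal nephron precursor-like, with Lgr5, a receptor of stem and precursor cells, at 262 and 171 CPM against 59.7 and 17.5 in loop of Henle-like nuclei. These markers matched the 3 names at the level of clusters. Nephron progenitor-like and early nephron-like clusters were named at E18.5 and not at P3, so the other epithelial types are a different set at each age.

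Set against the other epithelial types, the loop, distal convoluted tubule and precursor types together held higher levels of Irx1, Irx2, Sim1, Sim2, Tfap2a, Tfap2b and Pou3f3 at both ages, while Irx3 differed by less. At least 2-fold higher were 7 of 8 members at E18.5, where 5.09% of all 17434 compared genes, those with at least 20 UMIs in the nuclei compared, were, and 7 of 8 at P3, where 11.2% of 16255 were. The median ratio of the members was 6.15 at E18.5 and 4.32 at P3, beside 0.968 and 1.06 over all genes. Sim2 had the highest ratio at both ages, 21.5 (17.7 to 26.2) at E18.5 and, at P3, 20.3 (15.9 to 26.2), followed by Tfap2b with 12.9 (11.7 to 14.2) and 17.4 (15.1 to 20.01). This order did not hold in each alternative. By marker UMIs of single nuclei Sim2 was at 3.34 and 3.38 and Tfap2b at 3.41 and 4.69, and with doublet-rich clusters named they were at 10.09 and 10.12 at P3. At the low end stood Irx3 with 1.2 (0.909 to 1.58) and 1.56 (1.09 to 2.22). Tfap2a passed 2-fold narrowly at E18.5, with 2.16 (1.82 to 2.55), and reached 3.46 (2.87 to 4.18) at P3. The types held 5.94% and 7.41% of all UMIs of the libraries, and 37.3% and 43.2% of the UMIs of Sim2, 38.7% and 42.0% of those of Tfap2b and 6.71% and 8.97% of those of Irx3. Members were left out of the genes used to cluster, but clustered genes that move with them were not, so these ratios are descriptions of the clusters.

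The count depended on how nuclei were assigned. When each nucleus was named by its own marker UMIs in place of its cluster, 4 of 8 members passed 2-fold at each age: Irx1, Irx2, Sim2 and Tfap2b. Sim1 was then at 1.76 and 1.78, Pou3f3 at 1.41 and 1.35, and Irx3 at P3 turned below 1, at 0.816. That assignment gave 19 types, where clusters gave 14 and 12, and also placed nuclei of unnamed clusters. Thin limb, macula densa and connecting tubule were among its types and named no cluster. Its distal and loop types held 5447 and 3205 nuclei, where clusters gave 1351 and 929, so the groups compared were not the same. In that assignment 28.5% of the ureteric tip-like and 20.3% of the collecting duct-like nuclei at E18.5, and 14.0% and 72.3% at P3, fell into the distal and loop types. Of the precursor-like nuclei, 70.9% and 47.3% fell into these types and 36.4% and 27.8% were named precursors by their own marker UMIs, so this type was less sharply defined than the loop of Henle-like type, with 99.2% and 96.7% in these types.

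**Figure D1:**
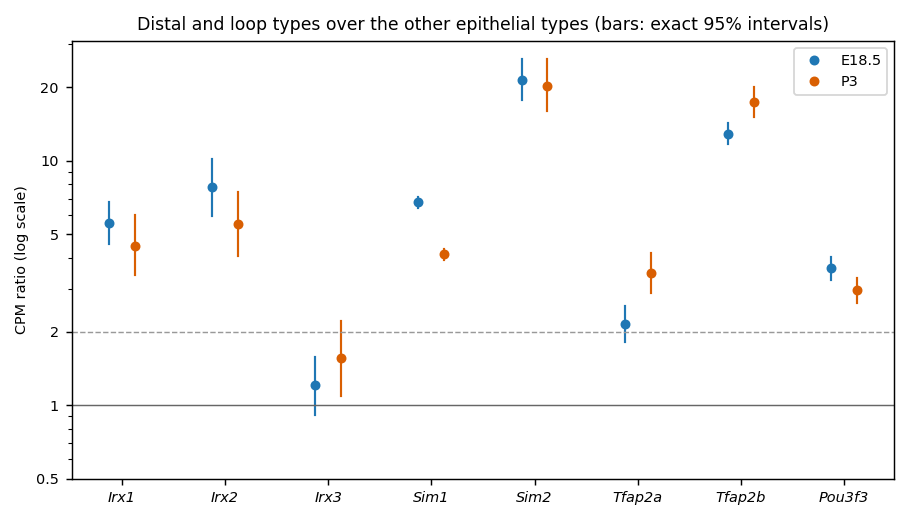
Ratio of the summed CPM in loop of Henle-like, distal convoluted tubule-like and distal nephron precursor-like nuclei to that in the other named epithelial types, on a log axis, for each gene at E18.5 (blue) and P3 (orange). Bars are exact 95% intervals of counting error, the dashed line is 2-fold, and Irx3 is the 1 gene below it, at 1.2 and 1.56.

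**Figure D2:**
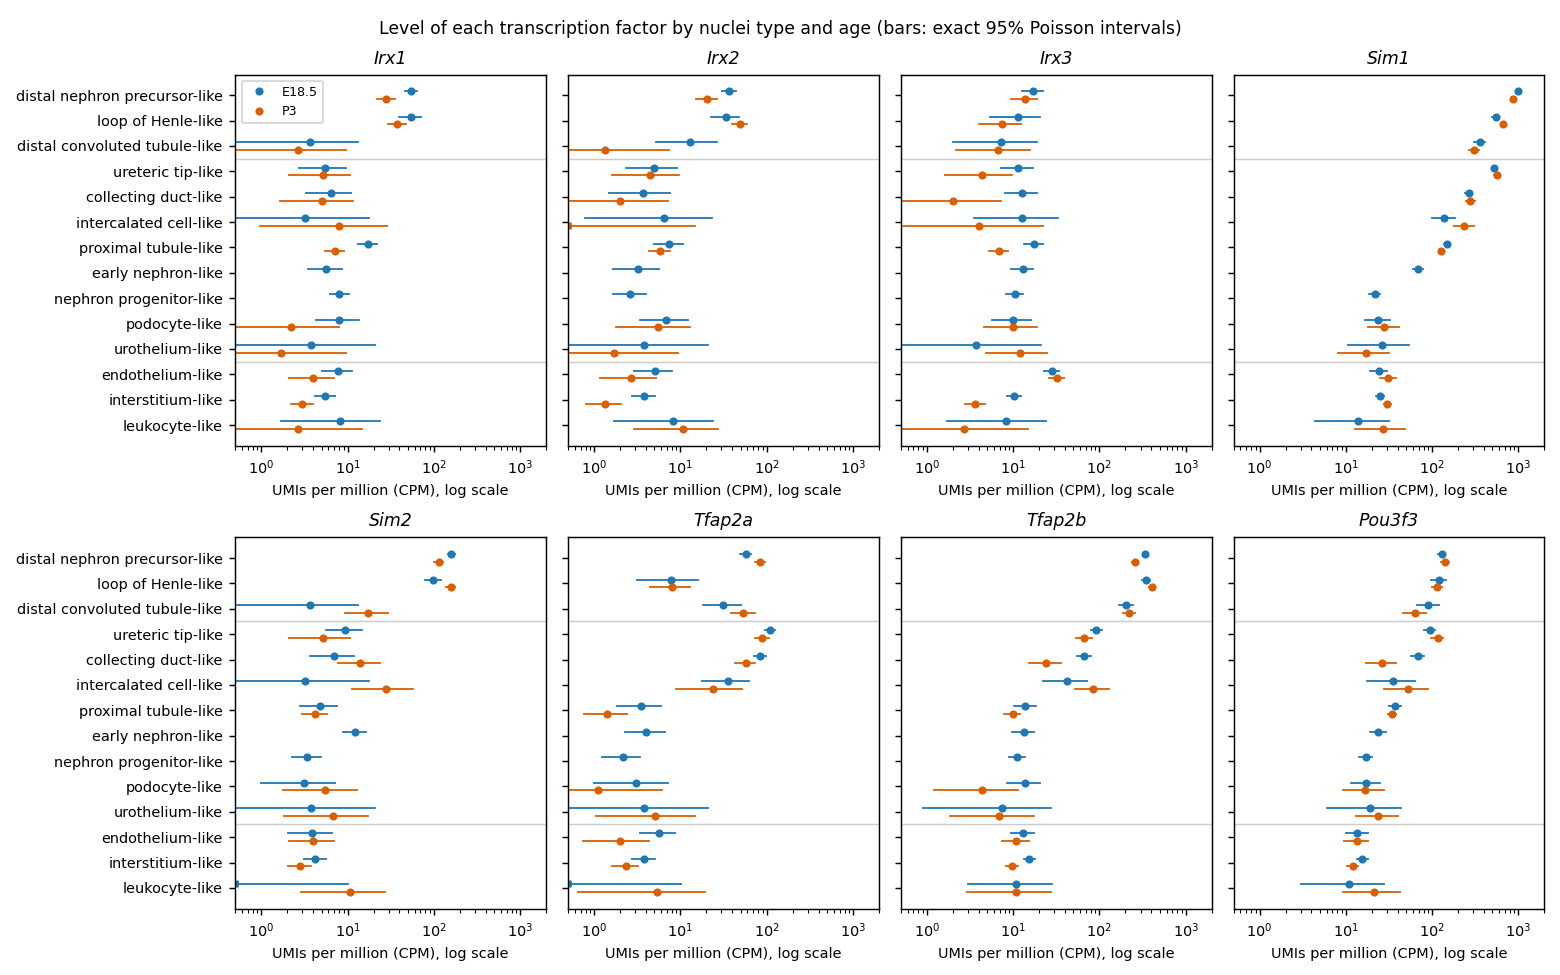
CPM of each gene (log axis) in every named type, 1 panel per gene, with E18.5 in blue and P3 in orange and exact 95% Poisson intervals, cut off where they run below the axis. Sim1 spans from 13.7 CPM in leukocyte-like to 993 in precursor-like nuclei at E18.5, and Irx3 is highest in endothelium-like nuclei at 28.1 and 31.9 CPM.

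Irx1 and Irx2 had the same leading types at E18.5. Irx1 was at 54.4 (46.6 to 63.2) CPM in precursor-like and 54.0 (39.8 to 71.7) in loop of Henle-like nuclei, levels that did not differ beyond counting error, then at 17.1 (13.2 to 21.8) in proximal tubule-like nuclei. Irx2 was at 36.7 (30.3 to 44.0) and 33.8 (22.8 to 48.2) CPM in precursor-like and loop of Henle-like nuclei, and at 12.8 (5.16 to 26.5) in distal convoluted tubule-like nuclei. Both genes were thus high in precursors and loop nuclei and low in the neighboring convoluted tubule, where Irx1 rested on 2 UMIs or 3.67 CPM. In ureteric tip-like nuclei, which are not part of the nephron, Irx1 was at 5.42 and Irx2 at 4.92 CPM, close to the 5.52 and 3.77 of interstitium-like nuclei. Such levels can be read as the background of the droplets, which was not tested.

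Irx2 differed between the leading types at P3, whereas its E18.5 levels in them did not differ beyond counting error. It was at 48.7 (39.2 to 59.7) CPM in loop of Henle-like and 20.3 (15.2 to 26.7) in precursor-like nuclei, a ratio of 2.39 (1.68 to 3.43). This was the only member at least 2-fold higher in loop than in precursor nuclei at P3, beside 8.6% of all genes, and there was none at E18.5, beside 5.46%. Irx1 was at 37.5 (29.3 to 47.4) and 28.2 (22.0 to 35.5) CPM in the same types, a ratio of 1.33 (0.947 to 1.88). After thinning each nucleus to 1000 UMIs, an Irx1 UMI was seen in 5.35% of loop of Henle-like nuclei at E18.5 and 3.28% at P3, against 1.19% and 0.637% of endothelium-like nuclei. Without thinning the shares were 15.9% and 15.8% of loop of Henle-like and 2.27% and 1.52% of endothelium-like nuclei. Thinning left out 2 and 0 loop of Henle-like nuclei with too few UMIs, 2 and 0 precursor-like and 9 and 2 endothelium-like nuclei. Even in its highest types, Irx1 was thus read in few nuclei at this depth.

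Irx3 did not follow the other Iroquois genes. Its highest level at both ages was in endothelium-like nuclei, 28.1 (22.7 to 34.3) CPM at E18.5 and, at P3, 31.9 (25.8 to 39.0), which was 2.74 (2.07 to 3.62) and 8.71 (6.18 to 12.4) times the level in interstitium-like nuclei. It was the only member past 2-fold there at E18.5, beside 8.48% of all genes. At P3 Irx2 also passed, beside 10.3%, with 2.69 against 1.33 CPM, both near the bottom of its range. In loop of Henle-like nuclei Irx3 was at 11.3 (5.4 to 20.7) and 7.4 (4.05 to 12.4) CPM, from 10 and 14 UMIs. In precursor-like nuclei it was at 17.1 (12.8 to 22.3) and 13.7 (9.53 to 19.0) CPM, second to endothelium-like nuclei at P3. Its highest level was thus outside the distal and loop segments, while the interval of its ratio in those types at P3 left out 1. Irx5, its neighbor on chromosome 8, was also highest in endothelium-like nuclei, at 30.8 and 42.0 CPM.

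Sim1 reached beyond the nephron. It was at 993 (959 to 1028) CPM in precursor-like nuclei at E18.5, at 543 (495 to 593) in loop of Henle-like and at 525 (494 to 557) in ureteric tip-like nuclei, where the last pair did not differ beyond counting error. Lower steps followed in distal convoluted tubule-like nuclei at 358, collecting duct-like at 266, proximal tubule-like at 150.2 and early nephron-like at 68.9 CPM. The order of the leading 4 types was the same at P3, from 869 (833 to 906) in precursor-like through 670.0 in loop of Henle-like and 563 in ureteric tip-like to 305 CPM in distal convoluted tubule-like nuclei. Sim1 UMIs were seen in 51.3% and 47.6% of precursor-like nuclei thinned to 1000 UMIs, and in 2.47% and 2.68% of endothelium-like nuclei, and without thinning in 79.4% and 78.9% of the former and 6.07% and 10.4% of the latter. Its level in types without a tubule was thus small beside its tubular levels, at 24.3 and 30.9 CPM in endothelium-like nuclei. Whether that level is background was not tested.

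Sim2 had its highest levels in the precursor and loop types at both ages. At E18.5 it was at 159 (146 to 174) CPM in precursor-like and 98.0 (78.5 to 121) in loop of Henle-like nuclei, and the next type, early nephron-like, stood at 12.2. Ureteric tip-like nuclei, where Sim1 was high, held Sim2 at 9.35 CPM. At P3 the leading types were reversed, with 156 (139 to 175) CPM in loop of Henle-like and 113 (101 to 127) in precursor-like nuclei and the next type, intercalated cell-like, at 28.1, so the loop to precursor ratio was 0.616 (0.485 to 0.774) at E18.5 and, at P3, 1.38 (1.17 to 1.62). Neither interval held 1, and whether the ratios differ between ages was not tested. Distal convoluted tubule-like nuclei held 2 Sim2 UMIs at E18.5 and 13 at P3, and the loop to convoluted tubule ratio was 26.7 (7.17 to 224) and 8.94 (5.15 to 17.0). Irx1, Irx2 and Sim2 were the members at least 2-fold higher in loop than in convoluted tubule nuclei at E18.5, beside 6.03% of all genes, and these 3 and Sim1 at P3, beside 10.7%.

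Against precursor-like nuclei, the distal convoluted tubule-like nuclei were at least 2-fold lower in 5 of 8 members at E18.5, Irx1, Irx2, Irx3, Sim1 and Sim2, beside 16.9% of all genes, and in 6 of 8 at P3, where Pou3f3 joined them, beside 22%. Sim1 had ratios of 0.36 (0.31 to 0.416) and 0.35 (0.304 to 0.402), and Tfap2b, which did not pass, had 0.607 (0.495 to 0.738) and 0.846 (0.709 to 1.01).

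The AP-2 genes differed from each other in the loop. Tfap2b was high in each of the distal and loop types, at 347 (309 to 388) CPM in loop of Henle-like, 339 (319 to 359) in precursor-like and 206 (169 to 247) in distal convoluted tubule-like nuclei at E18.5. At P3 it was at 406 (378 to 436), 260.1 (241 to 281) and 220.0 (188 to 256) CPM in these types, so the loop stood apart from the precursors, with a ratio of 1.56 (1.41 to 1.74). Tfap2a, in contrast, was low in loop of Henle-like nuclei, with 7 UMIs or 7.88 (3.17 to 16.2) CPM at E18.5 and 15 UMIs or 7.93 (4.44 to 13.1) CPM at P3, where endothelium-like nuclei held 5.62 and 2.01. It was at 57.6 (49.5 to 66.6) and 84.9 (73.9 to 96.9) CPM in precursor-like nuclei and at 31.2 (18.2 to 49.9) and 53.7 (38.3 to 73.1) in distal convoluted tubule-like nuclei. The loop to precursor ratio of Tfap2a was 0.137 (0.0543 to 0.288) and 0.0935 (0.0514 to 0.158), and it was the only member at least 2-fold lower there at each age, beside 12.7% and 13.9% of all genes.

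Tfap2a was highest in the ureteric lineage at E18.5. Ureteric tip-like nuclei held it at 111 (96.8 to 126) and 88.3 (73.2 to 106) CPM, and collecting duct-like nuclei at 84.7 (72.1 to 98.8) and 57.2 (43.3 to 74.1). At P3 the tip and precursor levels did not differ beyond counting error, and the precursor level exceeded that of collecting duct-like nuclei. The 2-fold excess of Tfap2a in the distal and loop types at E18.5 was lost when nuclei were clustered with Leiden communities, at 1.72, with 20 neighbors, at 1.19, and when all deposited barcodes were used, at 1.98. Naming by marker UMIs turned its direction, at 0.893. At P3 it was lost with all deposited barcodes, at 1.79, and with marker UMIs, at 1.479.

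Pou3f3 had the smallest ratio of the 7 members past 2-fold at P3, 2.95 (2.63 to 3.32). At E18.5 it was at 129 (117 to 142) CPM in precursor-like, 119 (97.7 to 144) in loop of Henle-like, 93.5 (80.7 to 108) in ureteric tip-like and 89.9 (66.5 to 119) in distal convoluted tubule-like nuclei. No neighbors in this order differed beyond counting error. At P3 the precursor-like level of 142 (128 to 157) CPM exceeded the 116 (98.1 to 135) of ureteric tip-like and 113 (98.5 to 129) of loop of Henle-like nuclei, and 63.1 was found in distal convoluted tubule-like nuclei. Proximal tubule-like nuclei held 37.4 and 34.3 CPM, above the 13.6 and 13.4 of endothelium-like nuclei. Pantr1, the noncoding neighbor, was at 83.2 CPM in precursor-like and 56.3 in loop of Henle-like nuclei at E18.5, and at 57.1 and 66.1 at P3. Pantr1 lies on the minus strand and Pou3f3 on the plus strand, so the near ends of these genes are their starts. Whether any reads were assigned to the wrong gene was not tested.

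Precursor-like nuclei were then divided by Gata3, a factor of the ureteric lineage and of the distal end of the nephron. The division was chosen after the data were seen. A Gata3 UMI was found in 27.3% of precursor-like nuclei at E18.5 and 26.7% at P3, and in 67.8% and 78.2% of ureteric tip-like nuclei. The shares were 6.44% and 4.83% of endothelium-like and 8.78% and 5.69% of interstitium-like nuclei. Those can be read as background, which was not tested. Median depths were 3100 and 5117 UMIs in precursor-like and 3094.5 and 4534 in ureteric tip-like nuclei. They were 2837 and 3438 in endothelium-like and 2931 and 4129.5 in interstitium-like nuclei. Precursor-like nuclei with and without it had nearly equal depth, with median UMIs of 3106 and 3097.5 at E18.5 and 5216 and 5117 at P3. Slc12a1 was at 1404 (1356 to 1454) CPM in nuclei without and 314 (278 to 353) in nuclei with a Gata3 UMI at E18.5, and at 436 (406 to 467) and 64.5 (47.2 to 86.0) at P3. Calb1, the calcium-binding protein of the connecting segment, went the other way, at 33.7 (26.6 to 42.2) and 121 (98.7 to 146) CPM at E18.5 and, at P3, 21.2 (15.0 to 28.9) and 68.7 (50.8 to 90.8).

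Irx1, Irx2 and Sim2 were higher in the precursor-like nuclei without Gata3. Irx1 was at 68.8 (58.5 to 80.5) CPM without and 17.1 (9.55 to 28.1) with a Gata3 UMI at E18.5, a ratio of 4.03 (2.37 to 7.38), and the ratio was 5.18 (2.11 to 16.5) at P3. The ratios of Irx2 were 5.2 (2.55 to 12.4) and 3.64 (1.45 to 11.7). Sim2 was at 194 (177 to 213) against 68.2 (52.1 to 87.8) CPM at E18.5, a ratio of 2.85 (2.17 to 3.79), and at 153 (136 to 172) against 11.2 (4.84 to 22.1) at P3, a ratio of 13.6 (6.83 to 31.9). These 3 of the 8 members were at least 2-fold higher without Gata3 at both ages, beside 3.56% and 5.32% of all genes. Tfap2a leaned to the nuclei with Gata3, at 45.6 (37.2 to 55.2) against 88.7 (70.1 to 111) CPM and a ratio of 0.514 (0.379 to 0.698) at E18.5, and its ratio at P3 was 0.676 (0.509 to 0.903). No ratio of the other members reached 2-fold: Sim1 had 1.23 (1.13 to 1.33) and 1.2 (1.09 to 1.33), Tfap2b 1.77 (1.51 to 2.08) and 1.2 (1.0 to 1.44), Pou3f3 1.29 (1.02 to 1.64) and 1.59 (1.22 to 2.09), and Irx3 0.839 (0.461 to 1.59) and 1.55 (0.66 to 4.2). A nucleus without a Gata3 UMI may still express the gene, so the division is incomplete.

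**Figure D3:**
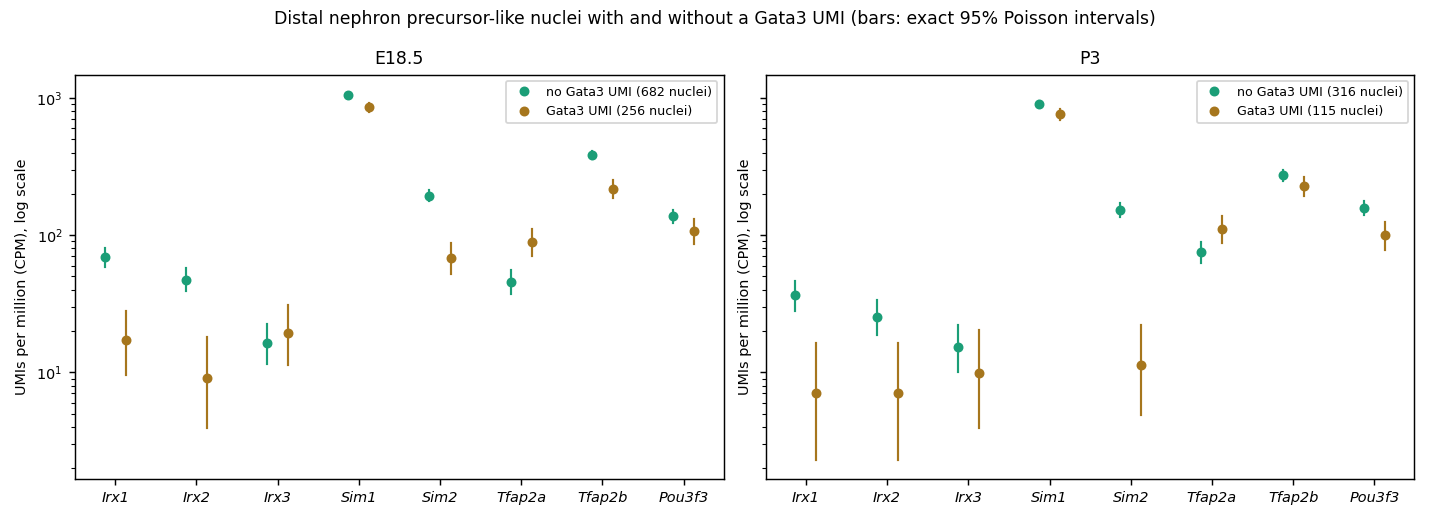
CPM (log axis) of each gene in distal nephron precursor-like nuclei without (green) and with (brown) a Gata3 UMI, at E18.5 on the left and P3 on the right, with exact 95% Poisson intervals. Irx1, Irx2 and Sim2 lie lower in nuclei with Gata3 at both ages, and Tfap2a lies higher.

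Pairs of members were also counted within single precursor-like nuclei. Sim2 and Tfap2a were found together less often than 2 independent genes would be, in 12 nuclei where 29.1 were expected, or 0.413 (0.214 to 0.718) times as many at E18.5, and 6 nuclei where 22.6 were expected, or 0.266 (0.098 to 0.574) times as many at P3. Irx1 and Sim2 were found together more often, in 78 nuclei where 29.3 were expected, or 2.66 (2.12 to 3.29) times as many at E18.5, and 30 nuclei where 9.58 were expected, or 3.13 (2.13 to 4.4) times as many at P3. The neighbors Irx1 and Irx2 met in 32 nuclei where 14.4 were expected, or 2.23 (1.53 to 3.12) times as many at E18.5. Sim1 and Tfap2b, both detected in many nuclei, had ratios of 1.09 (1.01 to 1.18) and 1.12 (0.988 to 1.26), close to 1, although the first interval leaves it out. Of the pairs with at least 5 expected nuclei, 6 of 28 lay above and 3 below independence at E18.5, and 5 and 3 of 25 at P3. The expected numbers do not take the unequal depth of nuclei into account. After thinning to 2000 UMIs 2 of 25 and 2 of 16 pairs lay above and 1, Sim2 with Tfap2a, below at each age. The pairs above were Irx1 with Sim2 and Irx2 with Sim2 at E18.5, and Irx2 with Tfap2b and Sim2 with Tfap2b at P3, where Irx1 with Sim2 had fewer than 5 expected nuclei. After thinning to 1000 UMIs none of 14 and of 9 did either. Sim2 with Irx1 and with Irx2 then had fewer than 5 expected nuclei at both ages and was not compared. The same held for Sim2 with Tfap2a and Irx2 with Tfap2b at P3. At that depth these differences were not detectable.

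Within loop of Henle-like nuclei no pair of members stood above independence after thinning to 1000 UMIs, with 5 pairs compared at E18.5 and 8 at P3. Sim1 and Pou3f3 lay below it at E18.5, with 3 nuclei against 9.26 expected, but had ratios of 0.854 (0.537 to 1.27) after thinning to 2000 UMIs and 1.04 (0.812 to 1.29) without thinning. Without thinning, 1 of 20 pairs stood above at P3, Irx1 and Irx2 with a ratio of 1.71 (1.05 to 2.59), and 0 of 16 at E18.5. After thinning, this pair had fewer than 5 expected nuclei and was not compared.

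**Figure D4:**
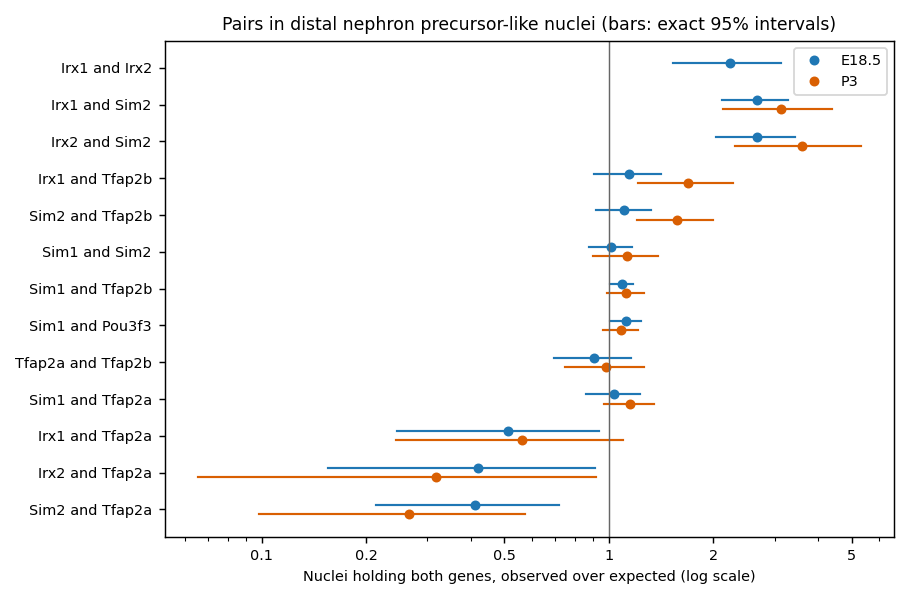
Nuclei with UMIs of both genes over the number expected of independent genes (log axis) for pairs of members in distal nephron precursor-like nuclei without thinning, at E18.5 and P3, with exact 95% intervals. Sim2 with Irx1 and with Irx2 lies above 1 and Sim2 with Tfap2a below it at both ages, the last at 0.413 and 0.266.

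At P3 the loop of Henle-like nuclei formed 2 clusters that differed in Irx1, Irx2 and Sim2. The larger, of 293 nuclei, was led by Slc12a1 and Sgcz and the other, of 73 nuclei, by Casr, the calcium-sensing receptor, and Enox1. Irx1 was at 45.6 CPM in the former and 5.29 in the latter, a ratio of 8.62 (2.3 to 72.6), and Irx2 at 60.1 and 2.65, a ratio of 22.7 (3.98 to 908). Sim2 was at 189.7 and 21.2 CPM, a ratio of 8.96 (4.49 to 21.0). In the smaller cluster Irx1 and Irx2 rested on 2 and 1 UMIs. Both genes were thus near their P3 levels in endothelium-like nuclei, 4.03 and 2.69 CPM. Tfap2b leaned the other way, at 366 and 569 CPM and a ratio of 0.643 (0.548 to 0.756), and Sim1 differed little, with 0.914 (0.798 to 1.05). Pou3f3 had a ratio of 1.73 (1.15 to 2.7). Of the 6 members with enough UMIs to compare, 3 were at least 2-fold higher in the larger cluster and 0 lower, beside 13.2% and 3.71% of all genes. Tfap2a, with fewer than 20 UMIs in all, had 6 and 9 UMIs in these clusters of 293 and 73 nuclei. Per nucleus it thus leaned to the smaller cluster, from few UMIs.

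The 20 leading genes of each P3 loop cluster, members and companions left out, were then summed in every loop of Henle-like nucleus at E18.5, where these nuclei formed a single cluster. This step was added after the P3 clusters were seen. The first sum was larger in 89 nuclei, the second in 153, and they were equal in 3. Sim2 was at 194 CPM in the 89 and 37.6 in the 153 nuclei, a ratio of 5.15 (3.09 to 8.97), so its difference had the direction of that at P3. Irx1 was at 72.3 and 43.2, with a ratio of 1.67 (0.911 to 3.08), and Irx2 at 34.7 and 33.8, with 1.03 (0.451 to 2.25). Neither Iroquois gene was told apart by this division at E18.5. Tfap2b had a ratio of 0.781 (0.61 to 0.994). At least 2-fold higher in the 89 nuclei were 7.28% of all genes. The 153 nuclei held more of Nos1 and Pappa2, markers of the macula densa, the salt sensor at the end of the loop. Nos1 was at 111 against 2.89 CPM and Pappa2 at 559.9 against 20.2. The other macula densa markers, Ptgs2, Avpr1a and Oxtr, were not measured in this division. The tight junction gene Cldn16 divided as well, at 109 against 14.5 CPM. Cldn10, another tight junction gene, was at 56.4 against 361 CPM, but it is among the 20 genes of the first list. Its difference was thus built into the division.

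**Figure D5:**
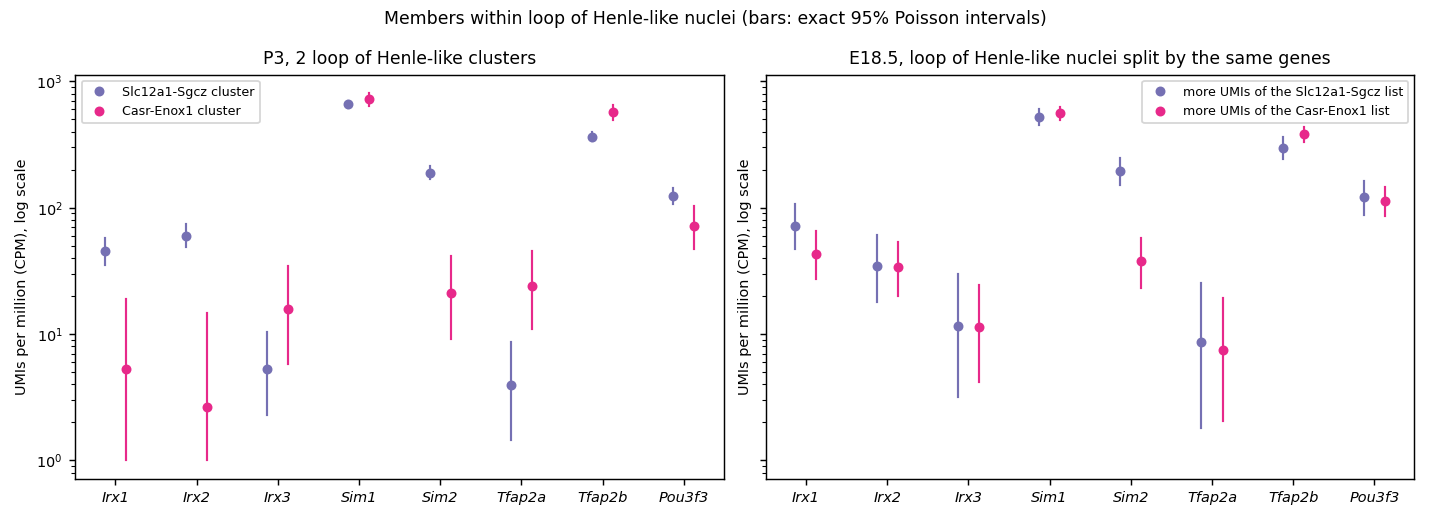
CPM (log axis) of each gene within loop of Henle-like nuclei, divided at P3 (left) by cluster and at E18.5 (right) by which P3 gene list had more UMIs. Bars are exact 95% Poisson intervals, cut off where they run below the axis. Sim2 is higher in the first set in both panels, 189.7 against 21.2 CPM at P3 and 194 against 37.6 at E18.5. Irx1 and Irx2 are apart at P3.

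Between the libraries, no member was at least 2-fold apart in loop of Henle-like nuclei, where 16.1% of 11310 genes were. The ratio of P3 to E18.5 was 1.59 (1.25 to 2.05) for Sim2, 1.23 (1.11 to 1.37) for Sim1 and 1.17 (1.02 to 1.34) for Tfap2b, intervals that leave out 1. Irx1 had 0.695 (0.475 to 1.02), Irx2 1.44 (0.945 to 2.25), Irx3 0.658 (0.272 to 1.65), Tfap2a 1.01 (0.386 to 2.92) and Pou3f3 0.948 (0.748 to 1.21), and these intervals hold 1. In the low members the intervals were wide, so that a difference of 2-fold was not detectable for Irx3 and Tfap2a at this depth. The intervals of Irx1, Irx2 and Sim2 also reach past 2-fold, so they do not leave out a difference of that size. The loop of Henle-like nuclei were divided by gene lists at E18.5 and by cluster at P3, so their mix cannot be compared between the libraries. Its part in these ratios was not tested. With all deposited barcodes in place of filtered nuclei, Irx2 passed 2-fold, at 2.02, and Sim1 was at 1.01. With nuclei named by their own marker UMIs, Sim1 and Tfap2b turned below 1, at 0.961 and 0.912, and Sim2 stood at 1.21. Irx1 was then at 0.641 (0.493 to 0.836) and Irx3 at 0.573 (0.348 to 0.944), intervals that leave out 1.

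Precursor-like nuclei also held no member at least 2-fold apart between the libraries, where 15.7% of genes were. Irx1 and Irx2 were lower at P3, with ratios of 0.517 (0.387 to 0.685) and 0.554 (0.392 to 0.775), Sim2 had 0.713 (0.615 to 0.825) and Tfap2a 1.47 (1.2 to 1.8). In collecting duct-like nuclei 4 of 6 compared members were at least 2-fold apart, beside 24.4% of genes. Tfap2b was lower there at P3, at 24.1 against 66.7 CPM, a ratio of 0.361 (0.223 to 0.562), and Pou3f3 was at 26.1 against 67.7, a ratio of 0.385 (0.243 to 0.591). Irx3 had 0.158 (0.0181 to 0.637) and Sim2 2.04 (0.891 to 4.72), both from few UMIs. In ureteric tip-like nuclei 1 of 6 compared members passed, Irx3, beside 18%, and Tfap2b and Pou3f3 had ratios of 0.723 (0.557 to 0.934) and 1.23 (0.993 to 1.53).

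Members were found in the proximal tubule too. At P3 the proximal tubule-like nuclei formed a cluster of 953 led by Slc5a12 and Gm32461, with all 9 proximal markers raised, and a cluster of 395 led by Aadat and Slco1a6, with 5 of 9. All 7 members with enough UMIs to compare were at least 2-fold higher in the cluster of 395, beside 9.98% of genes. Sim1 was at 333 against 42.9 CPM, a ratio of 7.76 (6.78 to 8.91), and Pou3f3 at 84.6 against 14.3, a ratio of 5.93 (4.63 to 7.64). Irx1 was at 20.8 against 1.69 and Irx2 at 16.9 against 1.38. Irx3, at 13.8 against 4.14, Tfap2b, at 16.1 against 7.36, and Sim2, at 8.46 against 2.45, differed by less. Tfap2b and Sim2 were there near their levels outside the epithelium. At P3 Tfap2b was at 10.7 CPM in endothelium-like and in leukocyte-like nuclei, and Sim2 at 4.03 and 10.7. Called doublets made up 2.53% of the cluster of 395 and 3.78% of the other.

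Each library had an unnamed epithelial cluster led by Grid1 and Stxbp5l, with 883 nuclei at E18.5 and 229 at P3, that also held members. These clusters were matched by their leading genes alone. The type with the largest share of raised markers was distal nephron precursor at E18.5 and early nephron at P3. Whether they hold the same kind of nuclei was not tested. In the E18.5 cluster Irx1 was at 34.7 CPM, Irx2 at 16.7, Sim1 at 372 and Sim2 at 59.2. Each was at least 2-fold above proximal tubule-like nuclei, beside 13.5% of genes. At P3 Irx3 and Sim2 passed, beside 15%, with Sim2 at 21.4 CPM. The P3 to E18.5 ratios between these clusters were 0.261 (0.127 to 0.485) for Irx1, 0.394 (0.162 to 0.834) for Irx2 and 0.361 (0.23 to 0.546) for Sim2. These 3 of 7 compared members were at least 2-fold lower in the P3 cluster, beside 12% of genes.

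The 18 companion genes comprised paralogs, partners, inhibitors and other distal factors, a list chosen with earlier results known. Of these, 11 had enough UMIs at each age to compare the distal and loop types with the other epithelial types, and 7 of 11 were at least 2-fold higher at each age. Pou3f1, Kctd1, Kctd15, Esrrb, Sall3 and Pantr1 passed at both ages, Esrrg at E18.5 and Irx5 at P3. Kctd1 and Kctd15, whose proteins inhibit AP-2 factors, had ratios of 2.65 (2.49 to 2.81) and 2.32 (1.94 to 2.76) at E18.5 and, at P3, 6.19 (5.75 to 6.67) and 3.33 (2.65 to 4.18). Kctd1 was at 299, 503 and 486 CPM in precursor-like, loop of Henle-like and distal convoluted tubule-like nuclei at E18.5. Esrrb and Esrrg, which encode nuclear receptors, had ratios of 31.6 (23.7 to 42.9) and 4.49 (4.41 to 4.58) at E18.5 and, at P3, 15.4 (12.4 to 19.4) and 1.99 (1.96 to 2.02). Esrrg was not confined to the distal and loop types. At E18.5 it was at 3748, 6990 and 9139 CPM in precursor-like, loop of Henle-like and distal convoluted tubule-like nuclei. Proximal tubule-like nuclei held it at 3299 CPM and intercalated cell-like nuclei at 4612. Arnt and Arnt2, whose proteins pair with SIM proteins, had 0.914 (0.82 to 1.02) and 1.51 (1.39 to 1.65) at E18.5 and, at P3, 0.958 (0.871 to 1.05) and 1.76 (1.63 to 1.9). The other 7 genes of the list, paralogs among them, had too few UMIs at a given age.

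Genes with the most similar pattern over the named types were ranked for each member by the Pearson correlation of log2(CPM + 10), over 14 types at E18.5 and 12 at P3, which share libraries and depth. A member was the nearest gene of Sim1, Tfap2b and Pou3f3 at E18.5 and of Irx1 and Sim2 at P3, and of none of the others. At P3 no member was among the nearest 3 genes of Irx2, Irx3, Sim1, Tfap2a or Tfap2b. Sim1 was nearest to Pou3f3 at E18.5, with r = 0.99, and Sim2 was among the nearest genes of Irx1, with r = 0.90 at E18.5 and 0.92 at P3. Tfap2b was nearest to Pou3f3 at E18.5, with r = 0.94. Pappa2 was among the nearest 3 genes of Irx1, Irx2 and Sim2 at E18.5, with 0.89, 0.87 and 0.92. Within loop of Henle-like nuclei at E18.5, however, the set higher in Pappa2 was the one lower in Sim2. Tfap2a was nearest to Gm26688 at E18.5, with 0.96, and Irx3 to Irx5, with 0.86. At P3 Pou3f3 was nearest to Pantr2, another noncoding gene, with 0.94.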

How the data were processed

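snRNA-seq of whole mouse kidneys was analyzed for 1 library at E18.5 and 1 at P3. What was deposited are raw UMI counts of each gene in each barcode. The authors made them with a 10x Genomics 3′ kit and Cell Ranger. Per the file headers the release was 7.0.0 for the E18.5 matrix and 5.0.1 for the P3 matrix, whereas the submitters' processing notes list 5.0.1 for both, with build mm10. Whether intronic reads were counted is not given in the sources used here. The median depth was 3132.5 UMIs per nucleus at E18.5 and 4534 at P3, and the intervals cover counting error only.

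Of 21600 and 12216 barcodes, those more than 3 median absolute deviations (MAD) below the median UMIs or genes, or above the median mitochondrial share by the larger of 3 MAD and 0.5 percentage points, were removed, which left 21270 and 11765. Nuclei that Scrublet (scanpy 1.11.5, expected rate 0.1) called doublets were kept. Size factors came from scran 1.30.0 (R 4.3.3), and 2000 variable genes without members and companions, 50 components, 10 neighbors and Walktrap communities (scater 1.30.1, bluster 1.12.0, igraph 2.1.4) gave clusters, once for all nuclei and again within the epithelium. A marker was raised in a cluster with at least 10 UMIs and 2 times the level in other nuclei after adding 10 CPM. A type was eligible with at least 3 raised markers and either 50% of its list or a marker among the top 10 genes, and among eligible types with at least 0.8 of the best share of raised markers the one with most markers in the top 10 gave the name, out of 19 types with 130 markers. Clusters with a tie, with more top 10 markers of another type, or with over 50% called doublets stayed unnamed. So did low-depth clusters with no marker of the type in the top 10, and erythroid clusters without raised Alas2. This naming rule was set after the data were seen.

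UMIs were summed over nuclei of a type (Python 3.11.15, numpy 2.4.6, scipy 1.17.1, pandas 2.3.3, figures with matplotlib 3.10.9), with exact Poisson intervals for levels and exact conditional binomial intervals for ratios. Intervals were checked on simulated counts. Genes with at least 20 UMIs over both groups of nuclei formed the background, and the fold limit was 2. No test across samples was possible with 1 library per age. The genes named were the 8 members, the 18 companions, the markers, the 5 leading genes of clusters and the 3 genes nearest to each member in pattern among those with at least 20 CPM in a type. The members and lists were chosen with earlier results of these data known. Alternatives removed called doublets, used Leiden communities, 20 neighbors, marker UMIs of single nuclei or all deposited barcodes, changed the thinning, and, added after the data were seen, named doublet-rich clusters. Promoter sequences and motif shares came from RefSeq (GRCm38.p6) windows of 250 bases. The result of 1 companion gene is not reported here.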

Additional observations from a re-analysis of the deposited data

Results flagged for a closer look

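Sim2 stood out because its difference between loop of Henle-like and distal nephron precursor-like nuclei took opposite directions in the libraries, with both intervals apart from 1. The loop to precursor ratio of Sim2 was 0.616 at E18.5 and 1.38 at P3. The difference between these ratios was not tested, because each age has 1 library, and age, genotype, strain, library and software release cannot be told apart. The make-up of the loop of Henle-like nuclei also differed. The sets higher and lower in Sim2 held 89 and 153 nuclei at E18.5, divided by gene lists, and 293 and 73 at P3, divided by cluster. Precursor-like nuclei differed too. Sim2 was at 159 CPM in them at E18.5 and 113 at P3, and at 98.0 and 156 in loop of Henle-like nuclei. By their own marker UMIs, 36.4% and 27.8% of precursor-like nuclei were named precursors. Whether the make-up of either type bears on the ratios was not tested.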

How the results depend on the processing

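No paired analysis was possible because each age has 1 library and the labels give no replicate numbers, and for the same reason no replicate could be left out. With types assigned by the marker UMIs of single nuclei, 4 of 8 members at E18.5 and 4 of 8 at P3 were at least 2-fold higher in the distal and loop types, where clusters gave 7 at each age, and Tfap2a at E18.5 reversed, with a ratio of 0.893. The distal and loop types of that assignment were larger, with 5447 and 3205 nuclei against 1351 and 929 by cluster. With all deposited barcodes, 1 member (Irx2, with a ratio of 2.02) was at least 2-fold apart between the ages in loop of Henle-like nuclei, where none was among filtered nuclei. With no thinning, 1 pair of members at P3, Irx1 and Irx2, lay above independence in loop of Henle-like nuclei. After thinning to 1000 UMIs none of the 8 compared pairs did, but this pair had fewer than 5 expected nuclei and was not among them. The causes of the changes with assignment and filtering were not tested. Of the alternative values for these counts, 20 stayed within 1.5 times and 4 did not, and of those for single members 102 stayed within the interval of the reported ratio, 41 moved outside it and 1, past 2-fold as reported, reversed. The values that stayed include those with doublet-rich clusters named, which left the loop of Henle-like nuclei at 245 and 366. Their comparison of the ages in loop of Henle-like nuclei thus could not change. By marker UMIs, 3 ratios under 2 whose intervals left out 1 also turned below 1, those of Irx3 at P3 (0.816) and of Sim1 (0.961) and Tfap2b (0.912) between the ages, and each new interval, like that of Tfap2a, held 1. In loop of Henle-like nuclei, UMIs limited the comparison of the ages for Irx3 and Tfap2a, whose levels rested on at most 15 UMIs. The intervals of Irx1, Irx2 and Sim2 in that comparison also reached past 2-fold.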
